A study of Homo sapiens with 16 samples.

Results

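The 10 genes described here encode the 3 TGF-β ligands (TGFB1, TGFB2, TGFB3), their 3 receptors (TGFBR1, TGFBR2, TGFBR3) and the 4 latent TGF-β binding proteins (LTBP1, LTBP2, LTBP3, LTBP4). They were taken by symbol from a table of 23340 named genes, and all 10 were found in it. Of the 10, 9 passed the filter on low values (a level of 10 on the linear scale, reached in 2 or more libraries) and were tested; TGFB3 did not. RNA was sequenced from MCF10A cells, a human mammary epithelial line that forms no tumours, grown with epidermal growth factor, insulin, hydrocortisone, cholera toxin and horse serum. The PHF8 stock overexpressed PHF8, a histone demethylase, and the Mock stock carried the empty vector. TGF-β1 was given at 5 ng/ml, and each stock was collected 24, 48 and 72 h later and also without it. This gave 8 groups of 2 libraries, 12 treated and 4 untreated in all. The labels do not say whether a stock was a pool or a single clone, or what drove PHF8. Replicate 1 of every group came from a first round of sequencing and replicate 2 from a second. Nothing in the labels says that replicates came from separate cultures, so the spread behind each p-value is that of these libraries and may be technical.

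TGF-β is made as a precursor whose propeptide stays bound to the mature ligand and keeps it latent. Latent binding proteins attach covalently to that complex in the cell and tie it to fibrillin microfibrils and fibronectin outside it, from where integrins and proteases can release the ligand; LTBP2 is the member of its family that does not bind latent TGF-β. Released ligand binds TGFBR2, the type II receptor kinase, which phosphorylates TGFBR1, the type I receptor kinase that in turn phosphorylates SMAD2 and SMAD3. TGFBR3, or betaglycan, has no kinase of its own, presents ligand to the signalling receptors and is the one through which TGFB2 gains high affinity for them. In mammary epithelium, TGF-β limits growth and induces the epithelial-mesenchymal transition. The TGF-β1 in this experiment was added as protein, so TGFB1 values here are those of the cells' own transcript.

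With TGF-β1, members of the family changed in opposite directions. Over the 12 treated and 4 untreated libraries, LTBP2 rose 5.28-fold, TGFBR1 2.96-fold and LTBP1 2.04-fold, LTBP4 and TGFB1 rose by less, and TGFBR3 fell to 23.1% of its untreated level. For the 4 genes that passed the test in both stocks at all 3 times, the sequence around the start is shown so that the shared and differing parts of these windows can be seen. Each runs from 250 bases before to 50 bases after the start, from RefSeq on GRCh38.p14, 5′ to 3′ on the gene's strand. Capitals mark CAGAC or its reverse complement GTCTG, the core of the element that SMAD3 and SMAD4 bind.
LTBP2, chr14:74612188-74612487, minus strand: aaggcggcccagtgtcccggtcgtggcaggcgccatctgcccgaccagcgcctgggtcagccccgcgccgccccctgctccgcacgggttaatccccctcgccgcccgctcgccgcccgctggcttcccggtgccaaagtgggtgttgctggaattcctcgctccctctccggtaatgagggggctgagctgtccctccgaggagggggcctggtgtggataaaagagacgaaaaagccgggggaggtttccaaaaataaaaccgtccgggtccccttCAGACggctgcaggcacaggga
LTBP1, chr2:32946703-32947002, plus strand: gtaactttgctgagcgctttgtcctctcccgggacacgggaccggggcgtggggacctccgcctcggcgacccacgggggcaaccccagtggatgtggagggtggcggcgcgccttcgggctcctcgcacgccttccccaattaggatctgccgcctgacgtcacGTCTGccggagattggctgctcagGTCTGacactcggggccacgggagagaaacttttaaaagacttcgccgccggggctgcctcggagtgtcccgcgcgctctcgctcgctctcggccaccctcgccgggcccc
TGFBR1, chr9:99104863-99105162, plus strand: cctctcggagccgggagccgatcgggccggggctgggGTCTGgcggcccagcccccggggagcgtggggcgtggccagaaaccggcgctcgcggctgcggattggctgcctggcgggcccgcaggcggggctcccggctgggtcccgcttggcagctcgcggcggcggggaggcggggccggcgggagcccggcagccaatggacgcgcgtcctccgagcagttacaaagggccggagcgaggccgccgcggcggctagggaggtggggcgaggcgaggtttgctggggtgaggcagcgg
TGFBR3, chr1:91886102-91886401, minus strand: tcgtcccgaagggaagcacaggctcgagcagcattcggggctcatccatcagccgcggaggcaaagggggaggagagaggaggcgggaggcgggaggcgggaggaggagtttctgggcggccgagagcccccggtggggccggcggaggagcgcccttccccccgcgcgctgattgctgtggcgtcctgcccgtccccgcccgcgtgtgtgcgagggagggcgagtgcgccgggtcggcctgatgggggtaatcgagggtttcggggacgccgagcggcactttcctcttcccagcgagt
CAGAC was found on either strand once in the LTBP2 window, starting at base +29 from the start, at -85 and -61 in LTBP1 and at -213 in TGFBR1. It was also found 2 times in the TGFB2 and TGFB3 windows and once in LTBP4. The windows of TGFBR3, TGFB1, TGFBR2 and LTBP3 held none, so genes with and without it were found both among the members that rose and among those with lower treated values. The same letters stood in 45.3% of 35116 RefSeq windows of this length. The palindrome GTCTAGAC, in 0.202% of all windows, and the AP-1 site TGANTCA, in 7.71%, were in none of the 10 members' windows. The E-box CAGGTG, to which Snail and ZEB repressors bind, was in 20.6% of all windows and in the LTBP3 window alone among the 10. The GC box GGGCGG, in 45% of all windows, was found 7 times in the TGFB1 window, 3 times in LTBP2, 2 times in TGFBR3 and once each in LTBP3 and LTBP4. For genes with several listed starts (8 for TGFBR1, 3 for LTBP1, 2 each for TGFB3, TGFBR2, LTBP3 and LTBP4) the first was used. Windows at their other starts were not searched for these counts. A match is a run of letters and not a bound site.

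As a check of the labels, PHF8 itself stood between 13.64 and 14.73 on the deposited log2 scale in the 8 PHF8 libraries and between 9.26 and 9.72 in the 8 Mock libraries. Within the PHF8 stock it was lower in round 2 (13.64 to 14.23) than in round 1 (14.47 to 14.73). The part of this in the stock differences by round was not tested. The TGF-β targets PMEPA1 and SMAD7 rose with TGF-β1, PMEPA1 by 3.45 ± 0.222 and SMAD7 by 2.04 ± 0.139 (log2, ± SE of the fit). Of the basal mammary markers, 7 of 7 were expressed; the sum of their levels was 219522 to 462170 in treated and 111183 to 170185 in untreated libraries, on the scale of normalised reads. Of the luminal markers, 5 of 8 passed the filter and 1, PGR, was at 0 throughout, with sums of 10498 to 13522 in treated and 8708 to 12290 in untreated libraries. Single luminal markers went opposite ways with TGF-β1, KRT8 by 0.86, ESR1 by -0.64 and FOXA1 by -0.79 (log2). Of the 5 blood markers, CD14 alone passed, and CD3E and HBB were at 0, with sums of 54.6 to 240 in treated and 342 to 796 in untreated libraries. Of the 5 endothelial markers 3 passed, with sums of 47.8 to 111 in treated and 58.5 to 145 in untreated libraries. The 7 fibroblast markers summed to 1208 to 8091 in treated and 321 to 5174 in untreated libraries, with COL1A1, COL1A2 and DCN above the filter and LUM, THY1, PDGFRA and PDGFRB below it. Between the stocks, COL1A2 was higher in PHF8 cells by 1.07 ± 0.237 (adjusted p = 0.0494 in limma's test, described below). DCN was higher there by 1.49 ± 0.681 (0.312, and 0.0286 with the sequencing round as a block), and COL1A1 by 0.11 ± 0.186 (0.83). The part of these cell type markers in the results below was not tested. In bulk RNA, a change in the RNA of each cell and a change in the number of cells of a kind cannot be told apart.

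Before treatment TGFBR2 and LTBP1 were the most abundant of the 10 transcripts. To compare genes with each other, 2 raised to each value was divided by the gene's exon length in kilobases, which gives normalised reads per kilobase. In the 4 untreated libraries TGFBR2 was the most abundant, at a median of 1980 reads per kilobase (range 1945 to 2072). LTBP1 came next at a median of 762 (685 to 840), below every TGFBR2 value. TGFBR1 (median 233), LTBP2 (159), TGFB2 (139), TGFBR3 (114), LTBP3 (107) and TGFB1 (84.0) followed. Neighbours in that order overlapped, except that the lowest TGFB2 value (131) lay just above the highest TGFBR3 value (129). LTBP4 lay below them at a median of 35.0 (30.1 to 40.0), and TGFB3 was last at 2.86 (2.61 to 2.92). The order was another in the 12 treated libraries. There TGFBR2, at a median of 1717 reads per kilobase (1206 to 2150), and LTBP1, at 1526 (1343 to 1988), overlapped. LTBP2 followed them at 848 (673 to 1017) and TGFBR1 came after it at 736 (472 to 953). LTBP3 (median 149, range 96.6 to 260), TGFB1 (137, range 94.3 to 208), TGFB2 (105, range 51.5 to 197) and LTBP4 (55.4, range 40.7 to 96.8) overlapped one another. By median TGFBR3 had moved down to the last place but one, at 25.2 (14.9 to 41.9), with its highest value just above the lowest of LTBP4 (40.7). Only TGFB3 lay below it, at 2.61 (1.65 to 3.07). The lengths come from GENCODE 29, not from the build the reads were counted on, and the deposited values compress low levels, so these ranks are approximate.

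Across all libraries 6 of the 9 tested members passed limma's moderated test with Benjamini-Hochberg adjustment over 13570 genes (adjusted p under 0.05). Of all tested genes, 40.1% passed in this comparison, 20.2% higher and 19.8% lower with TGF-β1. Of the members, 5 rose and 1 fell. The median log2 difference was 0.70 over the 9 members and -0.004 over all genes. With the sequencing round as a block, all 9 members passed, 6 higher and 3 lower, against 55.0% of all genes. The groups did not overlap for 5 members: every treated library lay above every untreated one for TGFBR1, LTBP1, LTBP2 and LTBP4 and below for TGFBR3. Among all tested genes 20.1% showed no overlap, 10.9% higher and 9.14% lower. The members were chosen with earlier results of these data known, so their shares beside those of all genes carry no test.

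**Figure D1:**
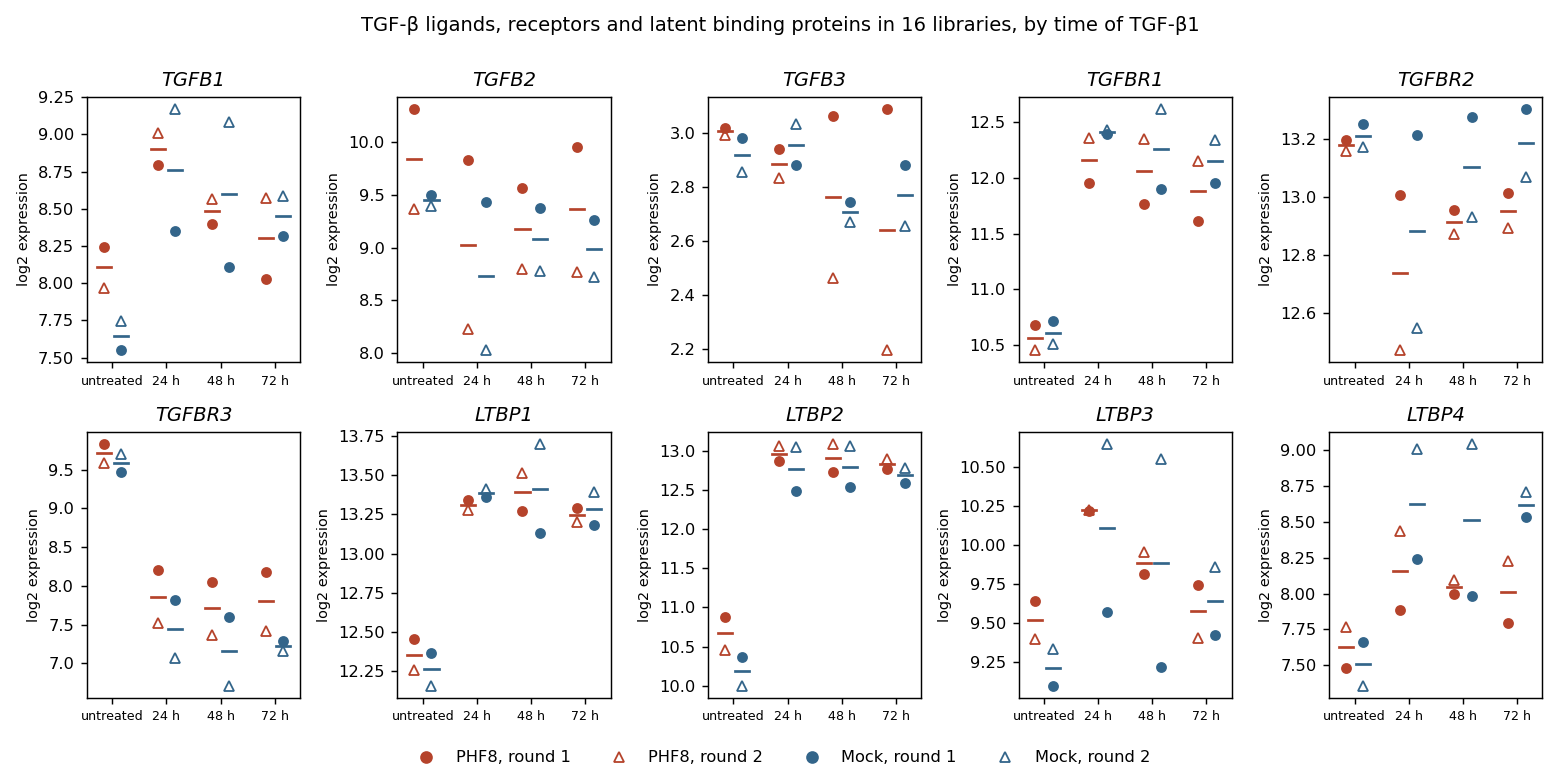
Deposited log2 expression (vertical axis, its own range for each gene) of the 10 genes in 16 libraries against time of TGF-β1 (horizontal axis). Circles are round 1, triangles round 2, red PHF8, blue Mock, and bars the mean of 2 libraries. LTBP2 lies between 12.49 and 13.09 in treated and between 10.00 and 10.88 in untreated libraries, and TGFBR3 between 6.71 and 8.20 in treated and between 9.47 and 9.83 in untreated libraries.

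Among the latent binding proteins, LTBP2, a fibrillin-binding matrix protein, changed most. In the PHF8 stock its log2 value in rounds 1 and 2 was 10.88 and 10.46 untreated, 12.87 and 13.06 at 24 h, 12.73 and 13.09 at 48 h and 12.77 and 12.89 at 72 h. In the Mock stock it was 10.37 and 10.00 untreated, 12.49 and 13.05 at 24 h, 12.54 and 13.07 at 48 h and 12.59 and 12.78 at 72 h. The lowest treated library was thus well above the highest untreated one, and the 3 times lay close together. The difference over all libraries was 2.40 ± 0.136 on the log2 scale (95% interval 4.30-fold to 6.50-fold, adjusted p = 7.06e-07). By stock and time LTBP2 rose between 4.47-fold, in PHF8 cells at 72 h (adjusted p = 0.000466), and 6.14-fold, in Mock cells at 48 h (adjusted p = 9.95e-05). The mean difference was 2.04 for round 1 and 2.76 for round 2. No library, left out alone, took the call away in any of the 7 comparisons with untreated cells.

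LTBP1, which binds the latent complexes of all 3 ligands and anchors them in the matrix, rose about as evenly but by less. Its PHF8 values in rounds 1 and 2 were 12.45 and 12.26 untreated, 13.34 and 13.28 at 24 h, 13.27 and 13.51 at 48 h and 13.29 and 13.20 at 72 h. Its Mock values were 12.37 and 12.16 untreated, 13.36 and 13.41 at 24 h, 13.13 and 13.70 at 48 h and 13.18 and 13.39 at 72 h. Treated and untreated libraries did not overlap in either stock. The difference over all libraries was 1.03 ± 0.0976 (1.76-fold to 2.37-fold, adjusted p = 1.62e-05), 0.85 for round 1 and 1.21 for round 2. It passed in all 6 comparisons within a stock, from 1.85-fold in PHF8 cells at 72 h to 2.22-fold in Mock cells at 48 h.

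LTBP4, which binds the TGFB1 latent complex only weakly and takes part in elastic fibre assembly, rose over all libraries, and within single times it passed in Mock cells. In PHF8 cells it stood at 7.48 and 7.77 untreated, 7.88 and 8.43 at 24 h, 8.00 and 8.09 at 48 h and 7.79 and 8.23 at 72 h. In Mock cells it stood at 7.66 and 7.36 untreated, 8.24 and 9.01 at 24 h, 7.98 and 9.04 at 48 h and 8.53 and 8.71 at 72 h. The lowest treated library (7.79) was only just above the highest untreated one (7.77). The difference was 0.76 ± 0.199 over all libraries (1.25-fold to 2.29-fold, adjusted p = 0.0106), 0.50 for round 1 and 1.02 for round 2. It was not called without the second untreated Mock library (0.68, adjusted p = 0.0559). Within a stock, LTBP4 passed in Mock cells at 24 h (2.16-fold, adjusted p = 0.0468) and, with the round as a block, also in Mock cells at 48 h (adjusted p = 0.0104) and 72 h (adjusted p = 0.0069).

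LTBP3, which helps the cell secrete latent TGF-β, lay at 9.22 to 10.65 in treated and 9.10 to 9.64 in untreated libraries, so the groups overlapped. It was higher in 12 of 12 treated libraries than in the untreated library of its own stock and round, with a difference of 0.52 ± 0.229 and an adjusted p of 0.0944 (0.0419 with the round as a block). The response was 0.29 for round 1 and 0.74 for round 2. The treated Mock libraries of round 2 at 24 and 48 h, at 10.65 and 10.55, were the 2 highest of all, and those of round 1 were at 9.57 and 9.22.

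The receptors moved in unlike ways. TGFBR1 rose in every treated group. In PHF8 cells it stood at 10.68 and 10.45 untreated, 11.95 and 12.36 at 24 h, 11.77 and 12.35 at 48 h and 11.61 and 12.15 at 72 h. In Mock cells the values were 10.71 and 10.50 untreated, 12.39 and 12.43 at 24 h, 11.90 and 12.62 at 48 h and 11.96 and 12.34 at 72 h. No treated library came within the range of the untreated ones. The difference was 1.57 ± 0.158 over all libraries (2.33-fold to 3.77-fold, adjusted p = 2.54e-05), 1.23 for round 1 and 1.90 for round 2. By stock and time TGFBR1 rose between 2.49-fold, in PHF8 cells at 72 h, and 3.48-fold, in Mock cells at 24 h.

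TGFBR2 had the narrowest range of group means among the 9, which spanned 0.47 on the log2 scale against 2.78 for LTBP2 and 2.55 for TGFBR3. It lay at 12.47 to 13.30 in treated and 13.16 to 13.25 in untreated libraries. In 10 of 12 matched pairs of the same stock and round the treated library was lower, but the pairs share 4 untreated libraries. The difference was -0.23 ± 0.125 with an adjusted p of 0.163 (0.0327 with the round as a block), -0.10 for round 1 and -0.37 for round 2. The lowest values were those of round 2 at 24 h, 12.47 in PHF8 and 12.55 in Mock cells. With the block, PHF8 cells at 24 h also passed (-0.44, adjusted p = 0.211 without the block and 0.0391 with it).

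TGFBR3 fell in every treated group. In PHF8 cells it stood at 9.83 and 9.59 untreated, 8.20 and 7.52 at 24 h, 8.06 and 7.37 at 48 h and 8.18 and 7.42 at 72 h. In Mock cells it stood at 9.47 and 9.70 untreated, 7.82 and 7.07 at 24 h, 7.60 and 6.71 at 48 h and 7.28 and 7.17 at 72 h. Every untreated library lay above every treated one, and at each stock and treated time round 2 was below round 1. The difference was -2.11 ± 0.22 over all libraries (adjusted p = 3.19e-05), -1.79 for round 1 and -2.43 for round 2. By stock and time the treated level was between 18.6% of the untreated level, in Mock cells at 48 h, and 27.8%, in PHF8 cells at 24 h.

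Of the ligands, TGFB1 rose over all libraries. Its PHF8 values were 8.24 and 7.97 untreated, 8.79 and 9.01 at 24 h, 8.40 and 8.57 at 48 h and 8.03 and 8.57 at 72 h. In Mock cells TGFB1 stood at 7.55 and 7.75 untreated, 8.35 and 9.17 at 24 h, 8.11 and 9.08 at 48 h and 8.32 and 8.58 at 72 h. Treated and untreated libraries overlapped, since 1 untreated PHF8 library (8.24) lay above 2 treated ones, from PHF8 cells at 72 h (8.03) and Mock cells at 48 h (8.11). In 11 of 12 matched pairs the treated library was higher, but the pairs share 4 untreated libraries. The difference was 0.70 ± 0.189 (1.22-fold to 2.17-fold, adjusted p = 0.0121), 0.44 for round 1 and 0.97 for round 2. It was not called without the first untreated Mock library (0.66, adjusted p = 0.052) or without the second untreated PHF8 library (0.64, adjusted p = 0.0609). Within a stock TGFB1 passed in Mock cells at 24 h (2.16-fold, adjusted p = 0.0388). With the round as a block it also passed in PHF8 cells at 24 h (0.028) and in Mock cells at 48 h (0.0104) and 72 h (0.0252), these being adjusted p-values.

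TGFB2, the ligand that depends most on betaglycan, differed between rounds in the treated libraries and in untreated PHF8 cells, and little in untreated Mock cells. In PHF8 cells it stood at 10.32 and 9.37 untreated, 9.83 and 8.23 at 24 h, 9.57 and 8.79 at 48 h and 9.96 and 8.77 at 72 h. In Mock cells it stood at 9.50 and 9.40 untreated, 9.43 and 8.02 at 24 h, 9.38 and 8.78 at 48 h and 9.26 and 8.72 at 72 h. Round 2 was lower than round 1 in 6 of 6 treated stock-and-time groups, by 0.55 to 1.60 in size, and treated and untreated ranges overlapped. In 12 of 12 matched pairs the treated library was the lower one, but the pairs share 4 untreated libraries and are not independent. The difference was -0.58 ± 0.352 with an adjusted p of 0.213 (0.0102 with the round as a block), -0.34 for round 1 and -0.83 for round 2. TGFB3 lay between 2.20 and 3.09 in all 16 libraries, below the limit of 3.32 for testing. In GENCODE 29 the exons of TGFB2 share 1371 bases with TGFB2-OT1 on the same strand. Those of TGFB3, LTBP1 and LTBP2 share 163, 249 and 207 bases with genes on the opposite strand. The strand setting of the counting is not given in the sources used here, so reads in these stretches cannot be assigned with certainty.

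**Figure D2:**
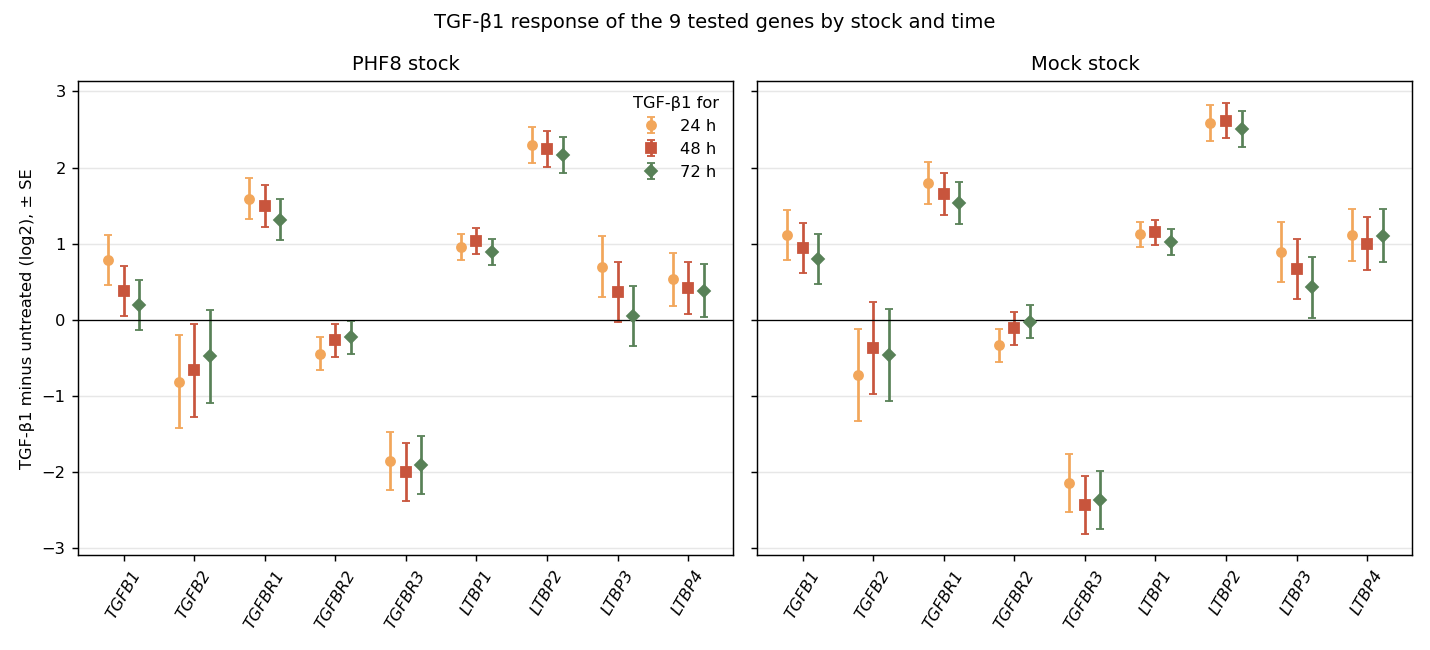
Difference in log2 expression, TGF-β1 minus untreated (vertical axis), for the 9 tested genes (horizontal axis) after 24 h (circles), 48 h (squares) and 72 h (diamonds) in the PHF8 stock (left) and the Mock stock (right). Error bars are ± SE of the fit over 16 libraries. LTBP2 lies between 2.16 and 2.62 and TGFBR3 between -2.43 and -1.85 in the 6 comparisons.

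In the single comparisons, 4 members passed in PHF8 cells at 24 h, 48 h and 72 h each, where 11.7%, 12.6% and 9.38% of all genes passed. In Mock cells 6 members passed at 24 h, 4 at 48 h and 4 at 72 h, where 17.3%, 17.3% and 14.4% of all genes passed. With the round as a block 6, 4 and 4 passed in PHF8 cells (29.3%, 28.2% and 23.4% of all genes) and 6 at each time in Mock cells (35.9%, 34.9% and 31.5%). TGFBR1, TGFBR3, LTBP1 and LTBP2 were the 4 that passed in all 6. The 3 times within a stock share their untreated libraries, so these are not independent comparisons. In PHF8 cells single libraries decided some of the calls in the fit without the round as a block, the only fit in which libraries were left out. With the block and all 16 libraries, limma's adjusted p in the 6 comparisons was at most 0.00146 for TGFBR1, 0.0026 for LTBP1 and 0.000464 for TGFBR3. TGFBR1 lost its call without the second untreated library at 24 h (adjusted p = 0.0555), 48 h (0.0544) and 72 h (0.107), and without the second treated library at 48 h (0.0569) and 72 h (0.107). LTBP1 lost it without the second untreated library at 24 h (0.0644) and 72 h (0.082), and without the first treated library at 72 h (0.0647). TGFBR3 lost it without the first untreated library at 24 h (0.0546) and 72 h (0.056). The same held for TGFBR3 without the second untreated library at 24 h (0.0646) and 72 h (0.0566), and without the second treated library at 24 h (0.0746), 48 h (0.0674) and 72 h (0.0906). With only the groups compared in the fit, PHF8 cells lost the calls at 24 h of TGFBR1 (adjusted p = 0.0613), LTBP1 (0.0699) and TGFBR3 (0.0765) and those at 72 h of TGFBR1 (0.0613) and TGFBR3 (0.055). In Mock cells these 4 genes kept their calls whichever library was left out. The calls of TGFB1 and LTBP4 in Mock cells at 24 h were lost without 7 and 11 of the 16 libraries in turn, of both stocks. Their adjusted p then lay between 0.0501 and 0.29 for TGFB1 and between 0.0547 and 0.312 for LTBP4, with the highest without the second treated Mock library of that time. With only the groups compared in the fit these calls were also lost (adjusted p = 0.0711 for TGFB1 and 0.0691 for LTBP4), while both genes passed in Mock cells at 72 h (0.0359 and 0.0131).

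No member passed the test for a change between the last and the first time after TGF-β1. Between 72 h and 24 h, as the mean over both stocks, 0 of 9 members passed limma's test, 0 had an unadjusted p under 0.05, and 0.0295% of all genes passed. With the round as a block 0 members passed and 3 had an unadjusted p under 0.05, with 0.892% of all genes called. TGFB1 was lower at 72 h by 0.45 on the log2 scale (95% interval -0.96 to 0.06) and LTBP3 by 0.56 (-1.17 to 0.06). LTBP2 (-0.11, interval -0.47 to 0.26) and LTBP1 (-0.08, interval -0.34 to 0.18) had the narrower intervals around small differences. These intervals are from the fit without the round as a block. Differences within them could not be told from 0 in that fit, with 2 libraries a group.

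The response in the second round was the larger one for all 9 tested members, and it had the same sign in both rounds for all 9. Among all tested genes 69.4% responded more in round 2 and 84.7% had the same sign in both rounds; among genes called over all libraries 81.6% responded more in round 2. Untreated cells of the 2 rounds also differed in PMEPA1, a TGF-β target. It stood at 10.06 in round 2 and 11.29 in round 1 in PHF8 cells, and at 10.19 in round 2 and 11.39 in round 1 in Mock cells. SMAD7, the other target used as a check, was also lower in round 2, but by less. Its values were 7.72 in round 2 and 8.07 in round 1 in PHF8 cells, and 7.90 and 8.03 in Mock cells. The part of these starting levels in the larger responses was not tested. Between treated libraries of the same stock and time, round 2 was above round 1 in 6 of 6 pairs for TGFB1, TGFBR1, LTBP2 and LTBP4. It was below in 6 of 6 pairs for TGFB2, TGFBR2 and TGFBR3.

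**Figure D3:**
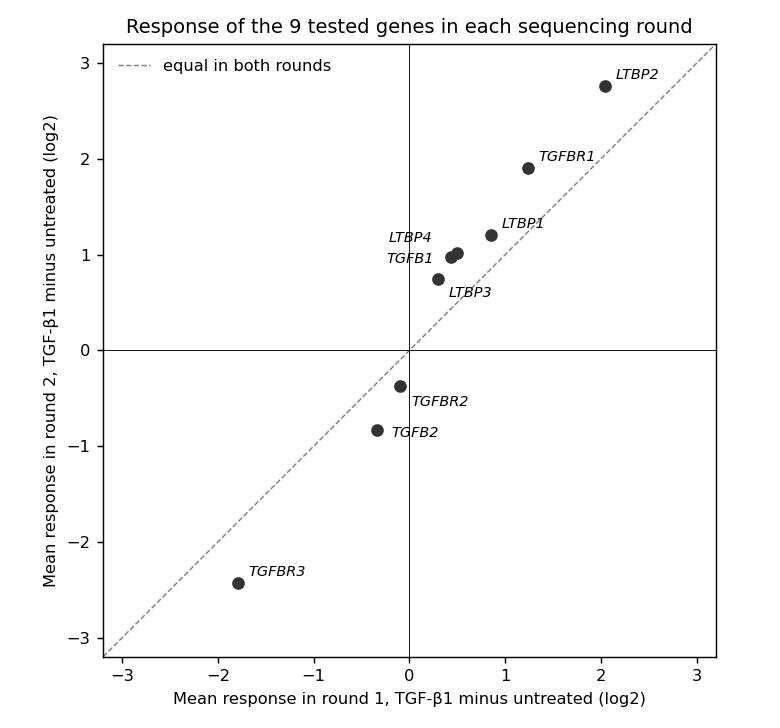
Mean response to TGF-β1 (log2, treated minus untreated, over 3 times and both stocks) in sequencing round 2 (vertical axis) against round 1 (horizontal axis). Each point is 1 of the 9 tested genes, and the dashed line marks equal responses. All 9 points lie farther from 0 in round 2, with LTBP2 at 2.76 in round 2 and 2.04 in round 1.

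PHF8 overexpression was set against Mock to ask whether the stock changes these genes, and no member passed the test, with or without the round as a block. As the mean over the 4 conditions 0 of 9 members were called by limma, 0 had an unadjusted p under 0.05, and 1.69% of all genes were called. With the round as a block 0 members were called and 2, TGFBR3 and LTBP4, had an unadjusted p under 0.05, with 9.12% of all genes called. At single conditions 0 members were called untreated, at 24, 48 or 72 h, where 0.00737%, 0.00737%, 0.00737% and 0.0147% of all genes were called. For all 9 members the PHF8 and Mock libraries overlapped; they did not for 0.508% of all genes. TGFBR3 had the largest difference. It was higher in the PHF8 library in 7 of 8 pairs of the same condition and round, by 0.42 ± 0.191 (95% interval -0.0007 to 0.84, adjusted p = 0.31). With the round as a block TGFBR3 just missed the threshold (limma's adjusted p = 0.0523). With a round term for each stock, an alternative chosen after seeing the data, TGFBR3 was called higher in PHF8 cells (adjusted p = 0.0296), the only member of 9, with 19% of all genes called. LTBP4 was lower in 6 of 8 pairs, by 0.36 in size (interval -0.74 to 0.02, adjusted p = 0.341, and 0.0941 with the round as a block).

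Several smaller differences kept 1 direction across pairs. The 8 pairs, here and for TGFBR3 and LTBP4, come from 2 rounds and are not 8 independent comparisons. How many of all tested genes kept 1 direction was not counted, so these counts carry no test. LTBP2 was higher in the PHF8 library in 8 of 8 pairs, by 0.23 ± 0.118 (interval -0.03 to 0.49). Its highest single difference was 0.51, in untreated cells of round 1, and its lowest was 0.004. TGFBR1 and TGFBR2 were lower in the PHF8 library in 8 of 8 pairs, by 0.19 and 0.15 in size (intervals -0.49 to 0.11 and -0.39 to 0.09). Their smallest single differences were -0.04 and -0.01. LTBP1 was higher in 4 pairs and lower in 4, with a difference of -0.01 and an interval of -0.20 to 0.17. LTBP3 went opposite ways in the 2 rounds, with 0.53 for round 1 and -0.35 for round 2. A missed threshold does not show that the stocks were alike. The intervals are from the fit without the round as a block, so they leave out the pairing of libraries by round. They say which differences remain possible in that fit. With the block, 2 members had an unadjusted p under 0.05 in limma's test.

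**Figure D4:**
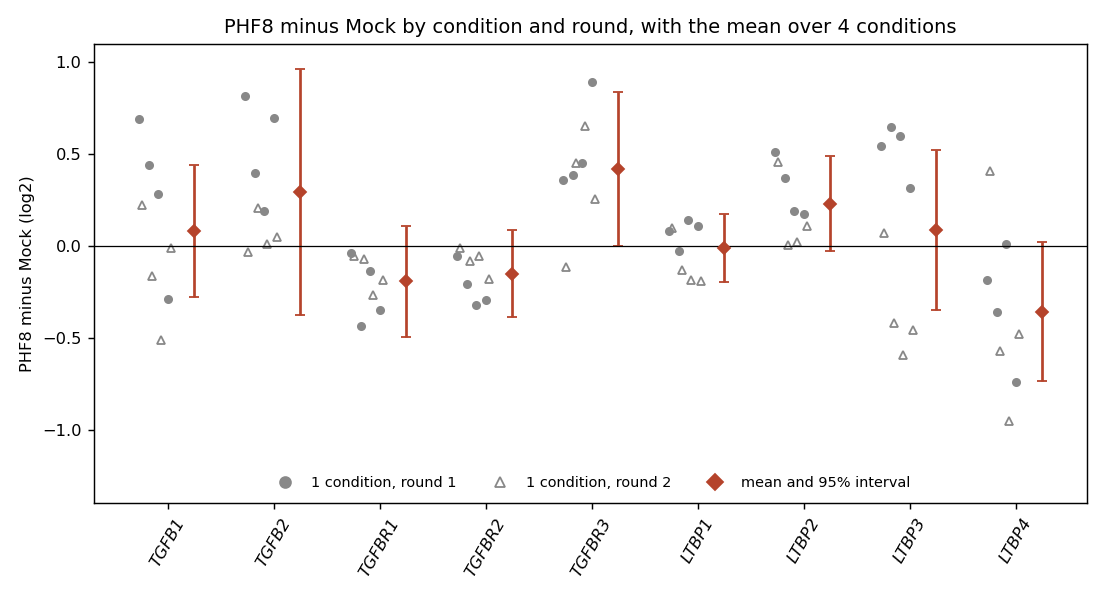
Difference in log2 expression, PHF8 minus Mock (vertical axis), of the 9 tested genes (horizontal axis). Grey circles (round 1) and triangles (round 2) are the 4 conditions one by one, and red diamonds the mean over them with its 95% interval. The intervals are from the fit without the round as a block, and those of all 9 genes include 0. With the block, 2 members had an unadjusted p under 0.05 in limma's test. TGFBR1 and TGFBR2 are below 0 in 8 of 8 pairs, with the smallest differences at -0.04 and -0.01.

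Whether the TGF-β1 response differed between the stocks was tested jointly over the 3 times. By limma 0 of 9 members passed, 0 had an unadjusted p under 0.05, and 0% of all genes passed, with or without the round as a block. In size, the mean response in PHF8 cells minus that in Mock cells was -0.63 for LTBP4 (95% interval -1.50 to 0.25), -0.50 for TGFB1 (-1.33 to 0.33) and -0.34 for LTBP2 (-0.94 to 0.26). For TGFBR3, which fell in both stocks, it was 0.39 (-0.57 to 1.36). The narrowest interval was that of LTBP1, -0.14 (-0.57 to 0.29).

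Genes that act on the same proteins were followed by lists chosen for their roles, in the comparison over all libraries. The lists were chosen with earlier results of these data known, so their shares and medians are descriptions and not a test. Of 17 tested genes of latency and activation, 13 rose and 2 fell, with a median difference of 1.07. Transglutaminase 2 (TGM2), which cross-links latent complexes to matrix, rose by 4.31 ± 0.279. The integrin β3 subunit (ITGB3) rose by 4.23 ± 0.184 and the β6 subunit (ITGB6) by 2.37 ± 0.484; both pair with αv to bind latent TGF-β. The proteases MMP9 (3.63 ± 0.926), MMP2 (2.66 ± 0.248) and PLAU (2.52 ± 0.275) rose as well. ITGB8, the subunit of another integrin that activates latent TGF-β, fell by 1.12, and the proprotein convertase PCSK6 by 0.73. LRRC32 and NRROS, listed as LRRC33, which hold latent TGF-β on cell surfaces, were below the limit for testing.

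Of 11 tested microfibril and matrix partners, 7 rose and 1 fell, with a median of 0.81. Fibronectin (FN1) rose by 4.82 ± 0.386, fibulin 5 (FBLN5) by 3.32 ± 0.269 and fibrillin 1 (FBN1) by 2.43 ± 0.38, with MFAP2 at 2.29 ± 0.245 and MFAP5 at 1.22 ± 0.358. EFEMP2, or fibulin 4, rose by 0.81 ± 0.136, while fibrillin 2 (FBN2) fell by 0.20. On the log2 scale of differences, the value for FBN1 stood next to that of LTBP2 (2.40).

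Of 9 other tested receptors and co-receptors of the superfamily, 3 rose and 1 fell, with a median of 0.11. BMPR2 rose by 1.09 ± 0.0951, ACVR1 by 0.90 ± 0.0961 and endoglin (ENG) by 0.27 ± 0.0738, and the activin receptor ACVR2B fell by 0.48. With the round as a block 4 rose and 1 fell, the added one being the activin receptor ACVR1B (0.31 ± 0.248, adjusted p = 0.351 without the block and 0.00411 with it). Of 11 other tested ligands and antagonists, 5 rose and 1 fell, with a median of 0.48. The activin antagonist FSTL3 rose by 1.78 ± 0.157, BMP6 by 1.74 ± 0.207 and INHBA, the activin A subunit, by 1.56 ± 0.326, with GDF11 at 0.62 ± 0.122 and BMP2 at 0.51 ± 0.157. GDF15, a stress-induced cytokine, fell by 1.75.

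Of 17 SMADs and feedback regulators, 7 rose and 3 fell, with a median of 0.14. Besides PMEPA1 and SMAD7, both inhibitors of the pathway, the SMAD corepressors SKIL (1.79 ± 0.155) and SKI (0.83 ± 0.197) and the ubiquitin ligases SMURF2 (0.99 ± 0.0583) and SMURF1 (0.84 ± 0.169) rose. TGIF2, SMAD1 and USP15 fell by 0.53, 0.45 and 0.38. With the round as a block 8 rose and 4 fell. The added ones were the inhibitory SMAD6 (0.74 ± 0.31, adjusted p = 0.08 without the block and 0.0232 with it) and the BMP-pathway SMAD5 (-0.13 ± 0.0709, 0.177 without and 0.0439 with it). SMAD2, SMAD3 and SMAD4 differed by 0.03, 0.03 and 0.04 and did not pass. The members' own share of 6 called in 9 stands beside 15 of 17, 8 of 11, 4 of 9, 6 of 11 and 10 of 17 in these lists, in the order given. Of all genes 40.1% were called. Members and lists were chosen with earlier results known, so these shares carry no test.

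**Figure D5:**
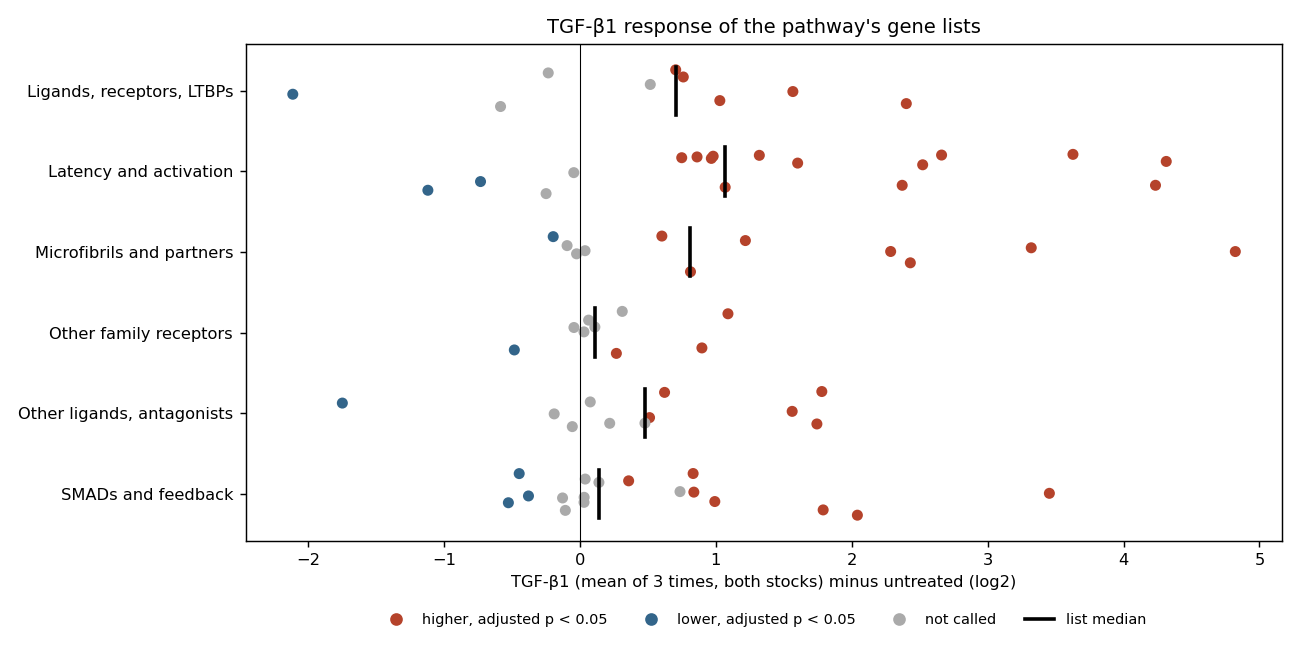
Difference in log2 expression, TGF-β1 (mean of 3 times, both stocks) minus untreated (horizontal axis), for the tested genes of 6 lists (rows). Each point is a gene, red where it rose, blue where it fell and grey where it did not pass at an adjusted p under 0.05, with vertical scatter for legibility only, and black bars are list medians. The latency and activation list has the highest median, 1.07, and the other receptors the lowest, 0.11.

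For the 3 members whose group means spanned the widest range, the genes most alike in log2 pattern over the 16 libraries were found by Pearson's r. The libraries share 8 groups, 2 rounds and the contrast with TGF-β1, so these values describe the pattern and carry no test. LTBP2 was most like FNDC4 (r = 0.992), LBH (0.989) and MICAL1 (0.989), all of which rose with TGF-β1, LBH by 5.01 ± 0.231. TGFBR1 was most like STON2 (0.989), the cytokine IL11 (0.986) and ABR (0.983), and IL11 rose by 3.24 ± 0.243. TGFBR3 was most like CISD1 (0.978), ZNF395 (0.973) and APIP (0.972), which fell by 0.75, 1.08 and 0.71.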

How the data were processed

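RNA was sequenced from 16 libraries of MCF10A cells. Per the labels, libraries were stranded total RNA with ribosomal RNA removed, read as pairs of 50 bases. Per the submitters' processing notes, reads were aligned to hg19 with TopHat2 2.0.13, counted with featureCounts of Subread 1.4.6 and processed with DESeq2. What the authors deposited is 1 log2 expression value for each gene in each library. Their pattern is that of a regularised log, but the transformation is not given in the sources used here. Base 2 was settled from the values, since 2 raised to the value summed to between 18.8 and 21.2 M per library. Low values are compressed by such a transformation, and no counts were available, so depth is unknown and no counting interval is given.

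The table held 23368 entries; 28 whose symbol had become a date were left out, and 4064 were at 0 throughout. Filtering at 10 in at least 2 libraries left 13570 genes. No pseudocount was added. limma 3.58.1 in R 4.3.3 was fitted with 1 mean per group over 16 libraries and a mean-variance trend (residual degrees of freedom: 8, and 7 when the round was a block), with Benjamini-Hochberg adjustment. Replicate numbers are the sequencing rounds in the labels, and deviations from group means were correlated within rounds (0.207 to 0.749 over 28 pairs of groups, median 0.461), so rounds pair the libraries. Blocked values are printed where they change a call of a member or of a gene of the 5 lists over all libraries. Alternatives were other filters, no trend, other scalings, only the groups compared, a block within each stock (for the comparison between stocks, added after seeing the data), each round alone and each library left out. Libraries were left out in the fit without the round as a block. The script was tested on simulated data.

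A further sheet was not used; 4 of its columns held values under names matching no sample. Genes named beyond the 10 were up to 6 called per list, by size, the nearest in pattern to 3 members, and the checks PHF8, SMAD7 and PMEPA1; cell type markers, genes below the limit, those named for the direction opposite to their list, SMAD2, SMAD3 and SMAD4, and ACVR1B, SMAD5 and SMAD6 were added after their values were seen. Members and lists were chosen with earlier results of these data known. Promoter windows are RefSeq's on GRCh38.p14, exon lengths GENCODE 29's.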

Additional observations from a re-analysis of the deposited data

How the results depend on the processing

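No member changed direction past the threshold under any alternative. Centring on the median and quantile normalisation changed no member's call in any comparison. With the replicate block (sequencing round) 9 further member calls were gained and none lost. Those are given beside the results, with 3 gained among the genes of the lists. The block changed no other call of a member, or of a gene of the 5 lists in the TGF-β1 comparison over all libraries. With a block within each stock, 8 members passed in PHF8 cells at 24 h and 7 in Mock cells at 48 h, against 4 and 4 without it; 1 member, TGFBR3, passed between the stocks over the 4 conditions, against 0 without it. With only the groups compared in the fit, 1 member passed in PHF8 cells at 24 h and 2 at 72 h, against 4 and 4, and in Mock cells 4 at 24 h and 6 at 72 h, against 6 and 4; all genes called in PHF8 cells then were 73 and 230, against 1590 and 1273, and with the round as a block 3974 and 3175. Leaving out each library in turn gave 1 to 4 members called in PHF8 cells at 24 h, 2 to 4 at 48 h and 1 to 4 at 72 h. It gave 4 to 6, 4 to 7 and 4 to 5 in Mock cells at the same times, 5 to 8 over all libraries, and 0 in every comparison of the stocks, of 72 h with 24 h and of the responses between stocks. The 7 in Mock cells at 48 h came without the first treated library of that time, where TGFB1 (adjusted p = 0.0169), LTBP3 (0.0313) and LTBP4 (0.0146) were added. The call of LTBP4 in Mock cells at 24 h was lost without a filter on low values and without the trend. A stricter filter added LTBP4 in Mock cells at 72 h. A count test was not run, since the values are not counts. The results rest on 2 libraries a group, depth is unknown, and TGFB3 was too low to test.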
